A study of Mus musculus with 7 samples.

Results

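Glycogen is the branched glucose polymer that muscle stores and burns, and 9 genes of its synthesis and breakdown were followed here in C2C12 myotubes given electrical pulse stimulation (EPS). The members were taken as a fixed list of gene symbols, matched exactly to the gene column of the deposited files: Ugp2, Gyg, Gys1 and Gbe1 for synthesis, Pygm, Pygb, Phka1 and Phkg1 for breakdown, and Stbd1 for the tethering of glycogen to membranes. All 9 were listed, among 26607 genes in all, and all 9 were above 0 in every library. The cells are C2C12, an immortal line of mouse myoblasts that form multinucleated myotubes in low serum, so they stand for 1 line and not for muscle tissue. The control group was made of 3 untreated libraries, numbered 1, 3 and 4, and the EPS group of 4 libraries, numbered 1 to 4, from myotubes that were pulsed for 24 h from day 3 of differentiation and then rested for 1 h. The labels do not say whether the libraries of a group came from separate cultures, so the p-values measure the spread between these libraries, which may be technical. The question of the comparison was which transcripts differ in myotubes made to contract in the absence of other organs.

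In muscle, UDP-glucose pyrophosphorylase makes the activated glucose, glycogenin primes a new particle, glycogen synthase lengthens its chains and the branching enzyme adds the branch points. Glycogen phosphorylase removes glucose from the chain ends. It is switched on by phosphorylase kinase, an enzyme of catalytic, regulatory and calmodulin subunits that responds to calcium and hormones, which couples glycogen use to contraction.

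The values are CPM, the reads of a gene scaled to the read total of its library. Whole reads were recovered from them, with 16616917 to 22120641 per control library and 18830229 to 21892568 per EPS library. Control replicate 4 stood apart, with 359 genes at 1 to 5 reads where the other libraries had 2670 to 3181. It also had 14014 genes above 0, against 16144 to 16984 in the others, and the reason was not tested. A value of 0 in this library may thus not mean the same as a 0 in the others. Several log2 fold changes are therefore given with and without this library. All 12 of the myotube markers examined were above 0 in every library, and their summed level was 18114.5 to 22174 CPM in the control and 14226 to 21485 CPM in the EPS group. Of the 12, 9 had lower means on the log2 scale with EPS, the median log2 difference was -0.24, and 1 of them, Actn2, was below all control libraries in each EPS library (-0.99, unadjusted P = 0.00405 from limma), as in 2.85% of all tested genes. All 8 of the cycling-cell markers had higher means in the EPS group, where their sum was 432 to 1257 CPM against 284 to 387 CPM in the control. In limma the unadjusted P of each of the 8 was under 0.05 and their median change was 0.97 on the log2 scale, while 0 of them met both of the thresholds described next. Of all tested genes, 11.6% reached that P in either direction. For Plk1 and Aurka each EPS library was above all control libraries, as in 7.76% of all tested genes. All 7 markers of undifferentiated myoblasts were also above 0 in every library, with a sum of 168 to 279 CPM in the control and 139.7 to 207 CPM in the EPS group. Of these 7, 6 were lower with EPS and the median log2 difference was -0.43. Id1 was below all control libraries in each EPS library (-1.09, unadjusted P = 0.0156 from limma), as in 2.85% of all tested genes. In RNA from a whole culture, fewer cells of a type and less RNA per cell cannot be told apart.

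Of the 9 glycogen genes, Gbe1 rose about 4-fold with EPS, to 4.16 times its control mean, and the other 8 did not pass the test in either direction. A gene was counted as a differentially expressed gene (DEG) where limma gave an unadjusted P under 0.01 and the change exceeded 2-fold, both on log2(CPM + 1). By this rule 1 of the 9 genes was up-regulated and 0 were down-regulated, against 0.966% and 0.439% of the 19144 tested genes. The members were chosen with earlier results of these data known, so this count and the p-values of Gbe1 do not rest on a blind choice. Once p-values were adjusted over all tested genes (Benjamini-Hochberg, limma), Gbe1 alone among the members was under 0.05, which 0.0992% of the tested genes reached with a higher level in the EPS group. The EPS libraries of Gbe1 were all above its control libraries, as in 7.76% of the tested genes, while the groups overlapped in each of the other 8. The median log2 fold change of the 9 genes was -0.081, beside 0.041 over all tested genes. The plot of levels by library shows these values.

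**Figure D1:**
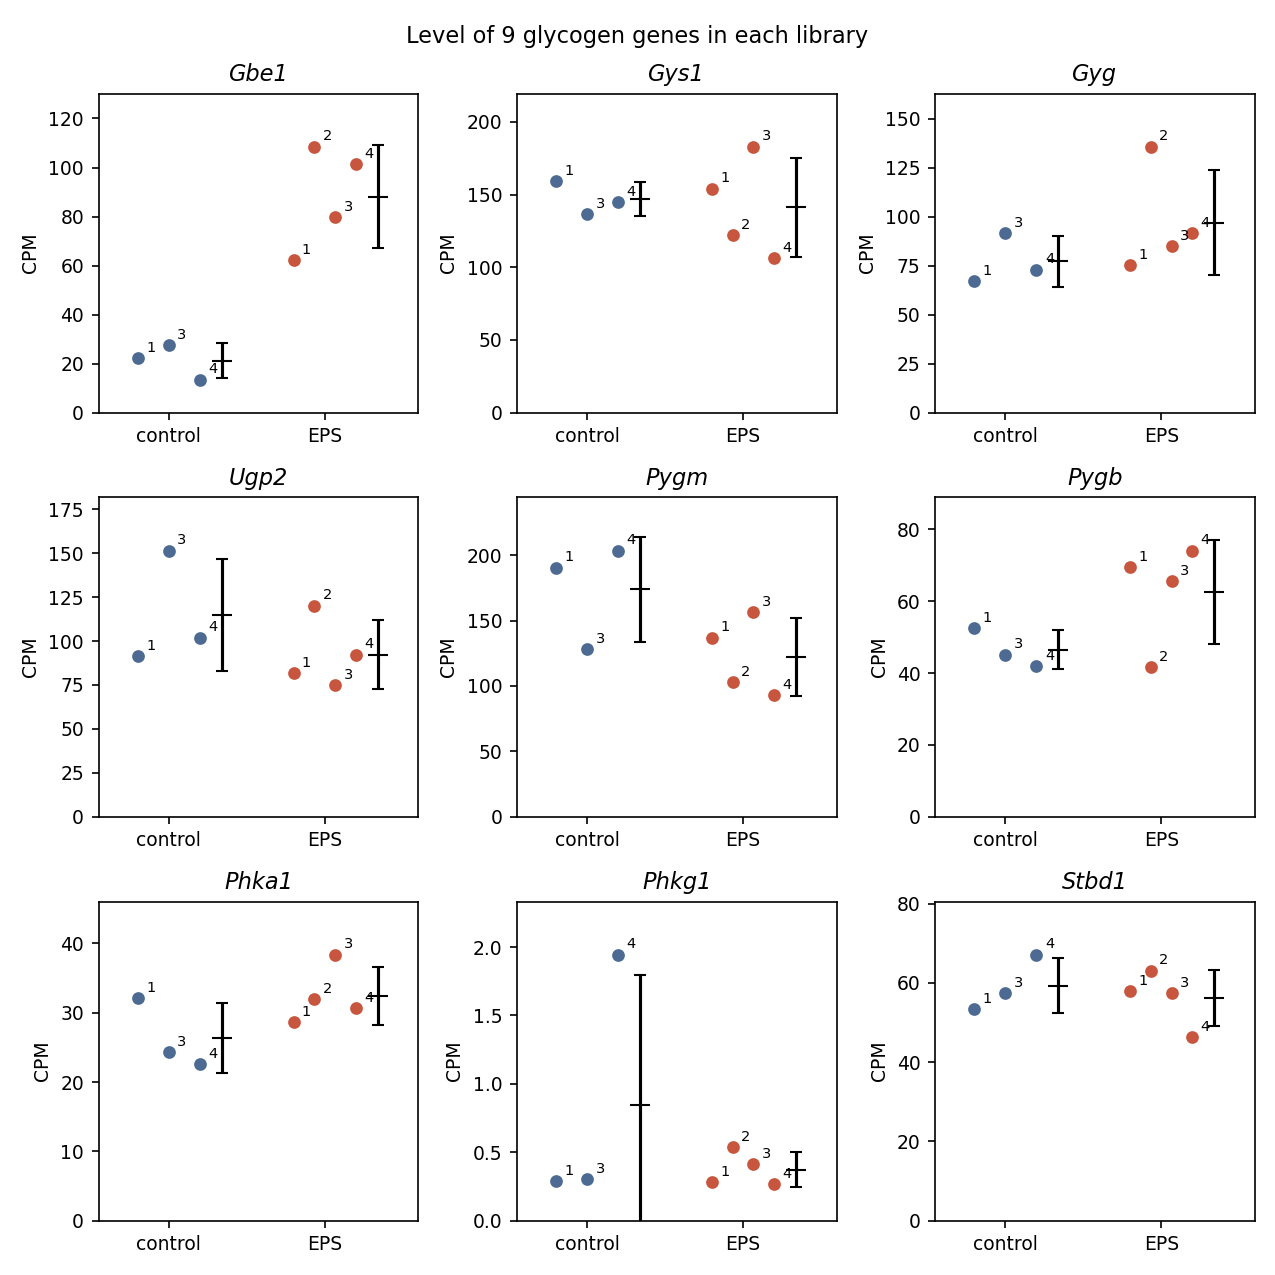
Level of each of the 9 glycogen genes in CPM (vertical axes, from 0), with 1 point per library marked by its replicate number, and the mean and SD of the 3 control and 4 EPS libraries beside the points. In the Gbe1 panel the EPS libraries sit between 62.3 and 108 CPM and the control libraries between 13.5 and 27.7 CPM, while the groups overlap in the other panels; in the Phkg1 panel the control SD reaches below 0 because control replicate 4 is at 1.94 CPM.

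Gbe1 (ENSMUSG00000022707.16) encodes the glycogen branching enzyme, whose loss leaves long, poorly soluble chains. It lies on the plus strand of chromosome 16 of GRCm38, chr16:70313949-70569716, in the GENCODE M21 annotation. No other annotated gene overlaps it. Its level was 22.3, 27.7 and 13.5 CPM in control replicates 1, 3 and 4, from 383, 460 and 299 reads. In EPS replicates 1 to 4 it was 62.3, 108, 79.9 and 101 CPM, from 1339, 2227, 1749 and 1908 reads. The lowest EPS library was thus 2.25 times the highest control library. The group levels were 21.2 ± 7.15 CPM (SD, n = 3) and 88.0 ± 20.99 CPM (SD, n = 4). The log2 fold change was 2.03 with a standard error of 0.27 (95% confidence interval 1.41 to 2.65, adjusted p = 0.0443 from limma). Compared by an exact permutation test of group means, two-sided, Gbe1 had p = 0.0286, the smallest that the 35 splits of 3 against 4 libraries allow. By increase, Gbe1 ranked 21 among the 19144 tested genes, and by P-value it ranked 19. Both ranks are on log2(CPM + 1), which reduces the changes of genes near or under 1 CPM.

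Gbe1 stayed a DEG in each of the 15 alternative analyses, with log2 fold changes from 1.75 to 2.24. Its adjusted p varied more, from 4.47e-09 to 0.510, and was under 0.05 in 7 of the 15. With 1 library left out at a time, it was 0.0380 without EPS replicate 1 and 0.0563 to 0.126 without any of the other 6 libraries. Without control replicate 4, where Gbe1 was lowest, the log2 fold change was 1.75 (adjusted p = 0.0665 from limma). Of 7 targets of the oxidative stress factor NRF2, 5 were up-regulated DEGs (Nqo1, Hmox1, Gclm, Txnrd1 and Srxn1), against 0.966% of all tested genes. The others were Gclc, at 0.77 on the log2 scale, and Slc7a11, at -0.26, and their groups overlapped. The summed level of the 7 was 273 to 307 CPM in the control and 647 to 1935 CPM in the EPS group. In EPS replicates 1 to 4 the sum was 647, 1187, 821 and 1935 CPM. Both this sum and Gbe1 were lowest in EPS replicate 1 and next lowest in replicate 3, and the sum was highest in replicate 4 where Gbe1 was highest in replicate 2. The sum of the cycling-cell markers was 898, 432, 569 and 1257 CPM in the same libraries, lowest in replicate 2. The part of these genes, or of the cycling-cell markers, in the change of Gbe1 was not tested.

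The promoter of Gbe1 is shown because this gene was the member that changed, beside those of Gys1, which acts on the same chains, and Pygm, which takes them apart. The sequences are those of RefSeq on GRCm38.p6, which had all 9 genes, and are the 250 bases before the annotated start, 5′ to 3′ on the strand of the gene. All 3 genes are on the plus strand. Capitals mark E-boxes (CANNTG, the core bound by myogenic factors) and the core of the hypoxia response element (ACGTG or GCGTG), read on both strands.
Gbe1, chr16:70313699-70313948: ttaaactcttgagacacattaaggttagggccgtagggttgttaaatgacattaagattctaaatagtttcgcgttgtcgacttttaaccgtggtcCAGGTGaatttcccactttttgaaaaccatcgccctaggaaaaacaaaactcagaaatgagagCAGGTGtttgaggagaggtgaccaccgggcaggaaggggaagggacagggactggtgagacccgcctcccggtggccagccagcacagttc
Gys1, chr7:45434589-45434838: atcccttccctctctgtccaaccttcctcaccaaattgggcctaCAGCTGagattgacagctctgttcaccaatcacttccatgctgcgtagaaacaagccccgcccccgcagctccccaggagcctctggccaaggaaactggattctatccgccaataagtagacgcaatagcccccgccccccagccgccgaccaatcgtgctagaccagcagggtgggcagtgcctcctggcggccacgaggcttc
Pygm, chr19:6384158-6384407: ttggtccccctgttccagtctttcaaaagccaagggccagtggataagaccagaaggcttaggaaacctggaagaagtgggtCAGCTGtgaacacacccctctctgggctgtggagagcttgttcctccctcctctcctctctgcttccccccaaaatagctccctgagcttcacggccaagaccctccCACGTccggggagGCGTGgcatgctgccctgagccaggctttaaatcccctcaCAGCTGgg
In these windows, Gbe1 had a pair of E-boxes, both CAGGTG, which start 154 and 91 bases before the gene's start. Gys1 had 1 E-box, and Pygm had a pair of CAGCTG E-boxes and a pair of hypoxia cores. Over the full windows of 300 bases, which add the first 50 bases of the transcript, the 9 genes had 10 windows because Ugp2 has 2 starts. E-boxes were in 9 of the 10, beside 72.3% of all 32851 windows. A hypoxia core was in 6, beside 43.8% of all windows, and Gbe1 and Gys1 had none. The antioxidant response element, searched as TGACNNNGC on both strands, was in 0 of the 10 and in 12.4% of all windows. A MEF2 site, searched as CTA, 4 bases of any kind and TAG, was in 1, that of Phka1, and in 3.69% of all windows. The 2 classes of capital can overlap, as in the CACGTG of Gyg, and a match in a window does not show that a factor binds there. The lack of a match says nothing about sites outside these 300 bases.

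Ugp2, Gyg and Gys1, which act before the branching enzyme, did not pass the test. Ugp2 (ENSMUSG00000001891.16, chr11:21321138-21371201, minus strand) encodes UDP-glucose pyrophosphorylase. Its level was 91.5, 151 and 102 CPM in control replicates 1, 3 and 4 and 81.9, 120, 75.0 and 92.2 CPM in EPS replicates 1 to 4. Control replicate 3 was the highest of the 7 libraries, and 2 of the EPS libraries were below all of the control libraries. For Ugp2 the log2 fold change was -0.30 (95% confidence interval -0.81 to 0.20, adjusted p = 0.654 from limma), and it was -0.088 without control replicate 3.
Gyg (ENSMUSG00000019528.18, chr3:20122084-20155317, minus strand) encodes glycogenin, the self-glucosylating primer of a glycogen particle. It was at 67.0, 91.8 and 73.1 CPM in the control and at 75.2, 136, 85.0 and 91.8 CPM in the EPS group, in the same order of replicates. EPS replicate 2 lay above the rest, and the other 3 EPS libraries lay within or just above the control range. Between groups, Gyg had a log2 fold change of 0.30 (95% confidence interval -0.19 to 0.79, adjusted p = 0.649 from limma), and it was 0.13 without EPS replicate 2.
Gys1 (ENSMUSG00000003865.16, chr7:45434844-45456619, plus strand) encodes muscle glycogen synthase, the enzyme that lengthens the chains. Its level was 159, 136 and 145 CPM in control replicates 1, 3 and 4 and 154, 122, 183 and 106 CPM in EPS replicates 1 to 4. The EPS libraries lay on both sides of the control range, which they enclosed. The group levels were 147 ± 11.6 CPM (SD, n = 3) and 141 ± 34.2 CPM (SD, n = 4). Between the groups the log2 fold change was -0.084 (95% confidence interval -0.54 to 0.37, adjusted p = 0.877 from limma), an interval that leaves out a change as large as 2-fold. Without EPS replicate 4 the sign changed, to 0.042. The annotated 5′ end of Gys1 overlaps Ruvbl2 on the opposite strand, and the strand setting of the read counting is not given in the sources used here.

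Of the phosphorylases, Pygm had a lower mean and Pygb a higher mean in the EPS group, and neither passed the test. Pygm (ENSMUSG00000032648.14, chr19:6384399-6398459, plus strand) encodes the muscle form, and its loss in people causes McArdle disease. Its level was 191, 128 and 204 CPM in control replicates 1, 3 and 4 and 137, 103, 157 and 92.8 CPM in EPS replicates 1 to 4. EPS replicates 2 and 4 were below all of the control libraries, while control replicate 3 was below EPS replicates 1 and 3. Group levels of Pygm were 174 ± 40.2 CPM (SD, n = 3) and 122 ± 29.7 CPM (SD, n = 4). The log2 fold change was -0.51 with a standard error of 0.24 (95% confidence interval -1.05 to 0.026, adjusted p = 0.454 from limma), and the exact permutation test gave p = 0.143. Leaving out control replicate 3 moved it to -0.71, and leaving out control replicate 4 moved it to -0.38. EPS replicate 4, which had the lowest Pygm, also had the lowest sum of myotube markers, at 14226 CPM, and the part of these markers in the levels of Pygm and of Prkag3 was not tested.
Pygb (ENSMUSG00000033059.7, chr2:150786735-150831758, plus strand) encodes the brain form, which is also expressed in developing muscle. It was at 52.5, 45.1 and 41.9 CPM in the control and at 69.4, 41.6, 65.6 and 74.1 CPM in the EPS group, in the same order. EPS replicates 1, 3 and 4 were above all of the control libraries and EPS replicate 2 was below all of them. The log2 fold change of Pygb was 0.40 (95% confidence interval -0.089 to 0.88, adjusted p = 0.518 from limma), and it was 0.58 without EPS replicate 2. The phosphorylase genes are paralogs, and how reads that match more than 1 gene were counted is not given in the sources used here.

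The muscle subunits of phosphorylase kinase did not pass the test either. Phka1 (ENSMUSG00000034055.16, chrX:102513975-102644246, minus strand) encodes the muscle form of the alpha regulatory subunit. Its level was 32.1, 24.3 and 22.6 CPM in control replicates 1, 3 and 4 and 28.6, 31.9, 38.4 and 30.6 CPM in EPS replicates 1 to 4. Control replicate 1 lay among the EPS libraries, and the other control libraries lay below all of them. For Phka1 the log2 fold change was 0.30 (95% confidence interval -0.12 to 0.71, adjusted p = 0.588 from limma). It was 0.20 without control replicate 4 and 0.44 without control replicate 1.
Phkg1 (ENSMUSG00000025537.12, chr5:129863421-129898549, minus strand) encodes the muscle form of the catalytic gamma subunit, and it was near the limit of detection. Its reads numbered 5, 5 and 43 in control replicates 1, 3 and 4, and in EPS replicates 1 to 4 they numbered 6, 11, 9 and 5. Control replicate 4, at 1.94 CPM, thus lay above the other 6 libraries, which were at 0.266 to 0.536 CPM. In limma the log2 fold change of Phkg1 was -0.32 (95% confidence interval -0.92 to 0.29, adjusted p = 0.703 from limma) and became 0.078 without control replicate 4. The annotated Phkg1 overlaps Chchd2 on the same strand and Sumf2 and Zbed5 on the other.
Stbd1 (ENSMUSG00000047963.7, chr5:92603041-92606579, plus strand) encodes a starch-binding protein that anchors glycogen to membranes and takes part in its delivery to lysosomes. Its level was 53.5, 57.5 and 67.1 CPM in control replicates 1, 3 and 4 and 58.0, 63.1, 57.4 and 46.3 CPM in EPS replicates 1 to 4. EPS replicate 4 was the lowest of the 7 libraries, and the other EPS libraries were within the control range. For Stbd1 the log2 fold change was -0.081 (95% confidence interval -0.44 to 0.28, adjusted p = 0.869 from limma). It was 0.0098 without control replicate 4 and 0.0079 without EPS replicate 4.

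**Figure D2:**
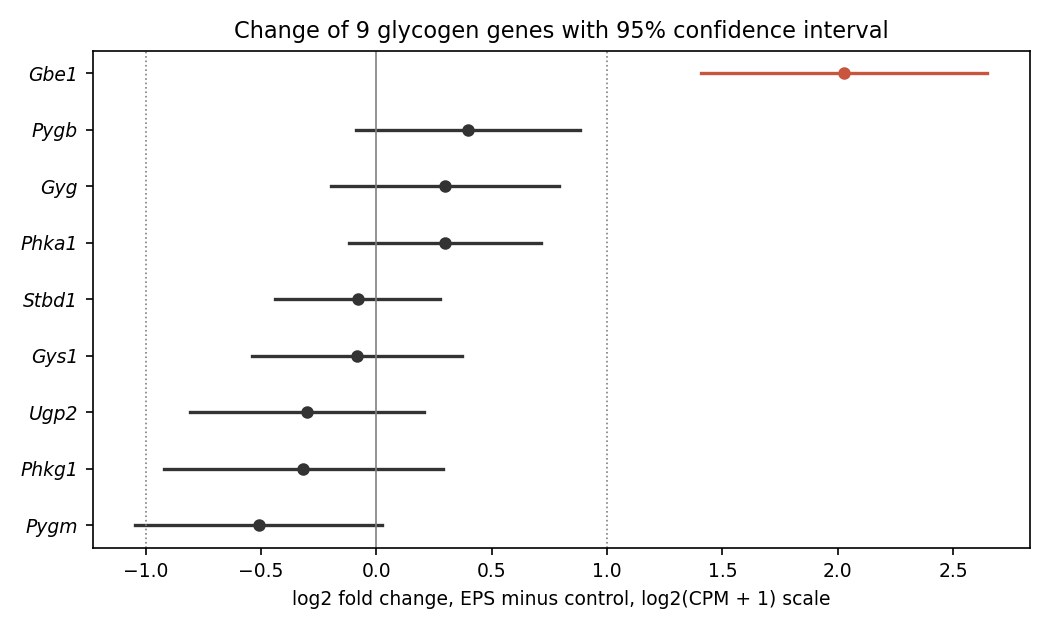
Log2 fold change of the 9 glycogen genes on the log2(CPM + 1) scale, EPS minus control, with points for the limma estimate, lines for its 95% confidence interval and dotted lines at 2-fold; the gene that passed the DEG thresholds is in red. Gbe1 is at 2.03 with an interval from 1.41 to 2.65, and the other 8 lie between -0.51 and 0.40 with intervals that include 0.

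Over the 8 genes that did not pass, the limma intervals ran from -1.05 to 0.88 on the log2 scale, and 7 of the 8 intervals lay within 2-fold in both directions. The exception was Pygm. The interval of Phkg1 is narrowed by the pseudocount of 1, since all but 1 of its libraries were under 1 CPM. Its mean CPM in the EPS group was 0.441 times that of the control, and its log2 fold change was -1.31 in edgeR and -1.33 in DESeq2 (adjusted p = 0.521 and 0.505). These values rest on control replicate 4, since the other control libraries, at 0.292 and 0.301 CPM, lay within the EPS range of 0.266 to 0.536 CPM. The deposited scale carried a small general shift, since the 12256 genes with a mean of at least 1 CPM had a median log2 fold change of 0.10, which median-of-ratios scaling moved to -0.0048. Under that scaling Gbe1 was at 1.92, and no member changed sign under it or under quantile normalization.

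Levels can be compared between genes only per length, so CPM were divided by the kilobases of annotated exon of each gene. In the control group the order was Pygm at 54.1 ± 12.5, Ugp2 at 37.5 ± 10.4, Gyg at 33.0 ± 5.50, Gys1 at 30.7 ± 2.42 and Stbd1 at 26.7 ± 3.16 CPM per kb (SD, n = 3). Neighbours among these 5 genes were within 1 SD of each other's range. Then came Pygb at 9.67 ± 1.14, Phka1 at 4.21 ± 0.814, Gbe1 at 3.96 ± 1.34 and Phkg1 at 0.130 ± 0.146 CPM per kb (SD, n = 3), of which Phka1 and Gbe1 were not apart by more than their SDs. Gbe1 was thus eighth of 9 in the control group. In the EPS group it was sixth, at 16.4 ± 3.92 CPM per kb (SD, n = 4), next to Pygb at 13.0 ± 3.02, and their SDs overlapped. Above it came Stbd1, at 25.3 ± 3.19 CPM per kb (SD, n = 4). Exon lengths come from GENCODE M21, which may not be the annotation used for counting. They join the exons of all annotated transcripts of a gene, so they can exceed the length of a single mRNA.

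**Figure D3:**
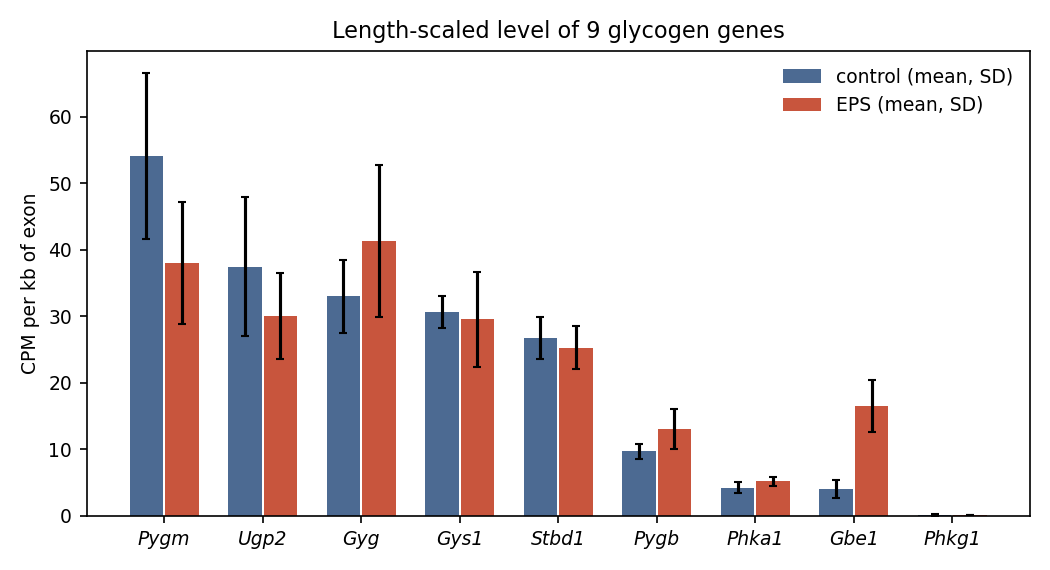
Level of the 9 glycogen genes per kilobase of annotated exon, in CPM per kb from 0, as the mean of 3 control and 4 EPS libraries with SD bars, ordered by the control mean. Gbe1 stands at 3.96 in the control and 16.4 in the EPS group, and Phkg1 is close to 0 in both.

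Ratios between 2 genes within a library were taken as differences of log2(CPM + 1), with no test, because they combine members whose values were known. The ratio of Gbe1 to Gys1, the branching against the lengthening enzyme, was -2.78, -2.26 and -3.33 in control replicates 1, 3 and 4. It was -1.29, -0.17, -1.19 and -0.066 in EPS replicates 1 to 4. The groups did not overlap and their means differed by 2.11. This largely repeats the change of Gbe1, whose groups did not overlap either and whose own log2 fold change was 2.03. How many pairs of genes give ratios that do not overlap was not computed. The ratio of the brain to the muscle phosphorylase, Pygb to Pygm, was -1.84, -1.49 and -2.25 in the control and -0.97, -1.29, -1.24 and -0.32 in the EPS group, in the same order. The lowest EPS library of this ratio was above the highest control library by a small margin, from -1.49 to -1.29, and the group means differed by 0.91. When 1 library was left out at a time, the differences lay between 1.84 and 2.38 for Gbe1 to Gys1 and between 0.69 and 1.09 for Pygb to Pygm.

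**Figure D4:**
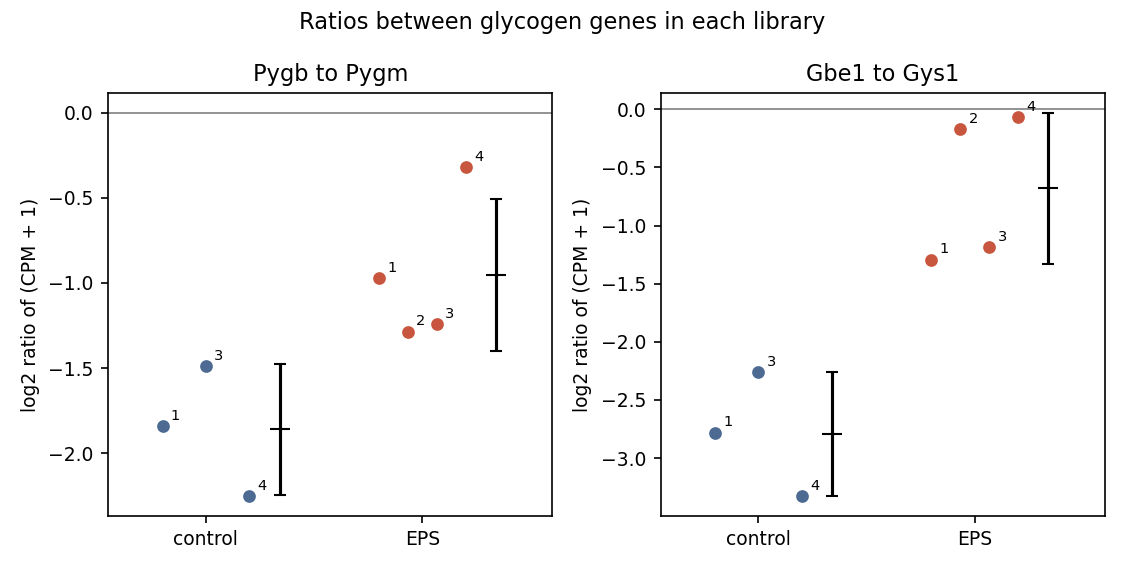
Log2 ratio of (CPM + 1) between Pygb and Pygm and between Gbe1 and Gys1, with 1 point per library marked by its replicate number and the mean and SD of each group; a value of 0 means equal CPM. Both ratios are higher in each of the 4 EPS libraries than in each of the 3 control libraries, with group means of -1.86 and -0.95 for Pygb to Pygm and -2.79 and -0.68 for Gbe1 to Gys1.

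The other genes of glycogen handling were taken from a list of 38 symbols covering further enzymes and subunits, protein phosphatase 1, kinases that act on glycogen synthase, and calmodulin. Of these, 37 were listed, Gyg1 being an older name of Gyg, and 33 were above 0 in at least 1 library. Gys2 (liver glycogen synthase), Ppp1r3d, Ppp1r3g and Ppp1r1a were listed at 0 in every library. By the DEG thresholds limma found 0 of the 33 up-regulated and 0 down-regulated, and edgeR and DESeq2 on the recovered reads also gave 0. At an unadjusted P under 0.05 in limma there were 7, with 5 higher and 2 lower in the EPS group, where 11.6% of all tested genes passed that threshold. At an unadjusted P under 0.01 there was 1 higher, Pgm2, and 1 lower, Prkag3, against 2.83% and 1.34% of all tested genes. The median log2 fold change of the 33 genes was 0.12, beside 0.041 over all tested genes. Non-overlapping groups were found for 2 genes that were higher, Pgm2 and Prkaa1, and in 2 that were lower, Prkag3 and Ppp1r3a, as in 7.76% and 2.85% of all tested genes.

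The row listed as Pgm2 was at 80.4, 102 and 88.2 CPM in control replicates 1, 3 and 4 and at 153, 187, 177 and 129 CPM in EPS replicates 1 to 4. All of its EPS libraries were above all of its control libraries. Its log2 fold change was 0.83 (95% confidence interval 0.44 to 1.21, adjusted p = 0.107 from limma), which is under 2-fold. When recovered reads were tested instead, Pgm2 was at 0.74 in edgeR (adjusted p = 0.104) and 0.73 in DESeq2 (adjusted p = 0.0205). Phosphoglucomutases link glycogen breakdown to glycolysis, but RefSeq gives Pgm1 and Pgm2 each as an older name of the other, so which of them this row measures is not settled. The row listed as Pgm1 was at 0.33 on the log2 scale, with an adjusted p of 0.681 in limma.
Prkag3, which encodes the gamma subunit of AMP-activated protein kinase found mainly in skeletal muscle, was at 114, 106 and 122 CPM in the control and at 69.0, 67.4, 68.9 and 42.2 CPM in the EPS group. All of its EPS libraries were below all of its control libraries. Its log2 fold change was -0.89 (95% confidence interval -1.34 to -0.45, adjusted p = 0.120 from limma). When recovered reads were tested instead, Prkag3 was at -0.98 in edgeR (adjusted p = 0.0224) and -0.99 in DESeq2 (adjusted p = 0.00237), past the adjusted threshold in both and under 2-fold. It was -0.72 without EPS replicate 4, and under median-of-ratios scaling it was -1.01 and passed both DEG thresholds.
Ppp1r3c encodes a subunit that brings protein phosphatase 1 to glycogen and favours synthesis. Its reads numbered 11, 23 and 0 in control replicates 1, 3 and 4, and in EPS replicates 1 to 4 they numbered 48, 82, 63 and 23. The groups overlapped, since control replicate 3 (1.38 CPM) exceeded EPS replicate 4 (1.22 CPM). The log2 fold change of Ppp1r3c was 1.12 (95% confidence interval 0.34 to 1.91, adjusted p = 0.241 from limma), with an unadjusted P in limma just above the threshold. It passed both DEG thresholds without control replicate 3, at 1.42, without EPS replicate 4, at 1.33, and when genes under a mean of 1 CPM were left out. Without control replicate 4, where it was at 0, the log2 fold change was 0.80 and it passed neither threshold (unadjusted P = 0.0419 and adjusted p = 0.417 from limma). On the recovered reads of all libraries it was 1.88 in edgeR and 1.85 in DESeq2, and the size of the change is uncertain.
The remaining genes of the list that were to be described did not pass the test. The phosphorylase kinase subunits Phkb, Phka2 and Phkg2 were at 0.18, -0.28 and 0.30 on the log2 scale, with adjusted p from 0.661 to 0.737 in limma. Without control replicate 4 they were at 0.043, -0.24 and 0.50, in the same order. With 1 library left out at a time, Phkb ran from 0.043 to 0.31, Phka2 from -0.43 to -0.16 and Phkg2 from 0.095 to 0.50. Pygl, the liver phosphorylase, had at most 21 reads in a library and an estimate of 0.38, with an adjusted p of 0.446 in limma. At under 1 CPM this estimate is reduced by the pseudocount of 1, and it was 1.26 in both edgeR and DESeq2 (adjusted p = 0.630 and 0.606). Without control replicate 4, where Pygl had 0 reads, the limma estimate was 0.23.

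**Figure D5:**
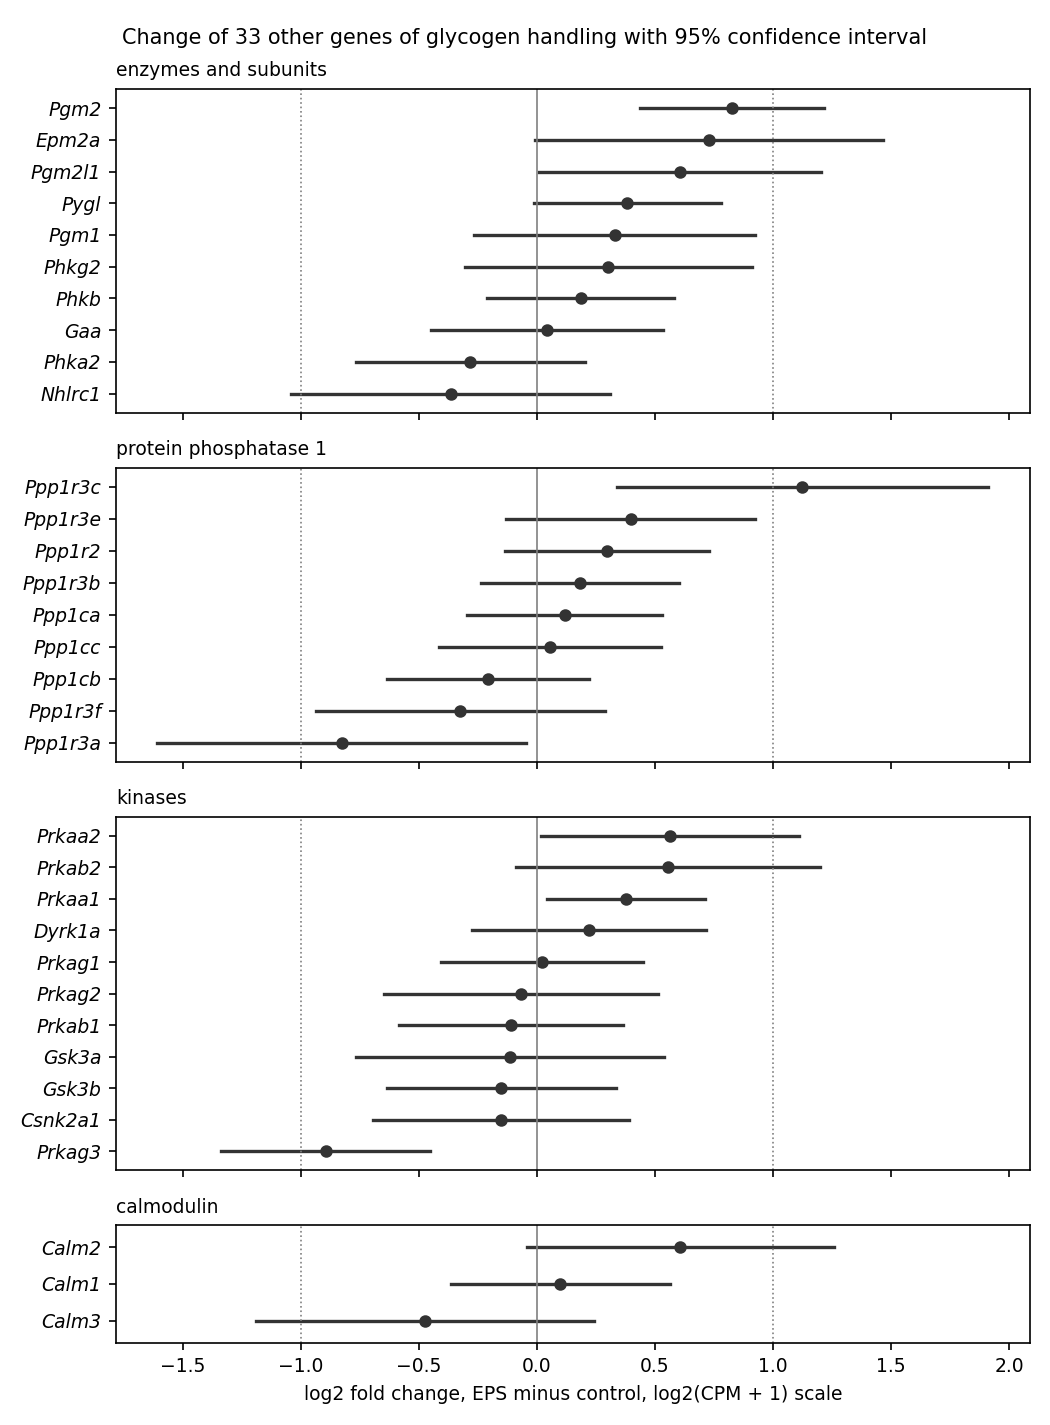
Log2 fold change of the 33 other glycogen genes on the log2(CPM + 1) scale, EPS minus control, in 4 groups, with points for the limma estimate, lines for the 95% confidence interval and dotted lines at 2-fold. The intervals of 7 genes leave out 0, with Pgm2, Pgm2l1, Ppp1r3c, Prkaa1 and Prkaa2 higher and Prkag3 and Ppp1r3a lower in the EPS group, and no gene passed the DEG thresholds.

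The genes whose pattern was most like that of Gbe1 over the 7 libraries, among 9255 others with a mean of at least 10 CPM, were Gpr137b, Ankrd33b, Mrgprf, Gstm1 and Tcf7. Their Pearson correlations with Gbe1 on log2(CPM + 1) were 0.998, 0.995, 0.990, 0.987 and 0.983, given as a description of 7 libraries that include both groups. Gpr137b, the closest, was at 10.3, 13.7 and 5.24 CPM in control replicates 1, 3 and 4 and at 35.4, 60.3, 41.6 and 64.3 CPM in EPS replicates 1 to 4. Like Gbe1, it was lowest in control replicate 4 and, within the EPS group, in replicate 1. Of the 7 other members with a mean of at least 10 CPM, which leaves out Phkg1, Pygm ran most against Gbe1, with a correlation of -0.81 over the same 7 libraries, and Phka1 and Gyg ran most with it, at 0.67 and 0.65.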

How the data were processed

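RNA-seq libraries, 3 control and 4 EPS, were analysed. Per the labels and the study's methods, poly(A) RNA was made into directional libraries and STAR 2.5.4b was used to map the paired-end reads to GRCm38. For each library and gene, CPM were deposited, which are reads scaled to the library's total. The read counter, its annotation and its strand setting are not given in the sources used here. Within a tolerance of 0.05 reads, 100% of the values corresponded to whole reads, so reads were recovered. A level of 3 reads was 0.136 to 0.181 CPM, for counting error only, since PCR copies count as separate reads.

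log2(CPM + 1) of the 19144 genes above 0 in at least 1 library was fitted with limma 3.58.1 (R 4.3.3, empirical Bayes with a trend, no covariate), with p-values adjusted over all tested genes by the Benjamini-Hochberg method. Single genes were tested by exact permutation, unadjusted. Alternatives were median-of-ratios scaling, quantile normalization, leaving out genes with a mean under 1 CPM, a pseudocount of 0.1 or 0.5, edgeR 4.0.16 (TMM, quasi-likelihood) and DESeq2 1.42.0 on the recovered reads, the replicate number as a block, and each library left out in turn. The tests were tried on simulated reads. The members and lists were chosen with earlier results of these data known. Named are all 9 members, listed genes with an unadjusted P under 0.01, 7 listed genes set ahead, and the 5 genes most correlated with Gbe1. Prkaa1, Prkaa2, Pgm2l1 and Ppp1r3a were named after their values were seen, as were the markers Actn2, Id1, Plk1 and Aurka. A gene that was to be described is not reported here and was left out of the list and its counts. No per-sample column was left unused.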

Additional observations from a re-analysis of the deposited data

Results flagged for a closer look

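Prkag3 in EPS replicate 4, at 42.2 CPM, lay apart from the other 3 EPS libraries, which were at 67.4 to 69.0 CPM. It was picked out by Dixon's test of the gap to the nearest library against the range of the EPS group on log2(CPM + 1). Of the 17 genes tested in this way, 1 was picked out, and chance picks out about 1 in 20 such groups.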

How the results depend on the processing

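Gbe1 was the only member counted as a DEG in each of the 15 alternatives. The number of members with an adjusted p under 0.05, 1 in limma on all libraries, was 0 after quantile normalization, where the adjusted p of Gbe1 was 0.0501, 0 with the replicate number as a block, where it was 0.510, and 0 to 1 with 1 library left out. Over the alternatives the adjusted p of Gbe1 ran from 4.47e-09 in DESeq2 to 0.510, and it was under 0.05 in 7. The number of other pathway genes counted as DEGs was 1 with a minimum mean of 1 CPM, 1 after median-of-ratios scaling and 0 to 1 with 1 library left out. Signs changed only with 1 library left out, for Gys1 (-0.22 to 0.042), Phkg1 (-0.52 to 0.078) and Stbd1 (-0.15 to 0.0098).

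Over all tested genes, 269 were DEGs, against 601 with a pseudocount of 0.1, 629 in edgeR, 585 in DESeq2 and 161 with the replicate block. Those with an adjusted p under 0.05 numbered 27, against 106 with a pseudocount of 0.1, 121 with a minimum mean of 1 CPM, 17 after quantile normalization, 290 in edgeR, 497 in DESeq2, 0 with the replicate block and 0 to 27 with 1 library left out. The cause of these shifts was not tested. Correlations across genes between same-numbered libraries had no common sign, at 0.25, -0.45 and 0.068 for replicates 1, 3 and 4. The numbers were therefore not taken as pairs, and the block leaves out EPS replicate 2, which has no control of its number. Depth limits Phkg1, Pygl and Ppp1r3c, which had at most 82 reads in a library.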

Other observations

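Within each small family, the share of a form was computed from CPM per kb after the values were seen, so these shares are descriptions without a test. Pygb made up 12.1% to 19.0% of phosphorylase transcripts (Pygb, Pygm and Pygl together) in the control libraries and 21.2% to 34.8% in the EPS libraries. Pygm made up 80.9% to 87.9% and 65.1% to 78.5%. These shares largely repeat the ratio of Pygb to Pygm, and neither gene passed the test alone. Phka1 made up 35.3% to 43.4% of the alpha subunit transcripts of phosphorylase kinase (Phka1 and Phka2) in the control and 43.6% to 56.6% in the EPS group, so the groups were almost in contact. Of the gamma subunit transcripts, Phkg1, the muscle form, made up 3.34% to 14.0% in the control and 2.32% to 5.05% in the EPS group, and the highest of these was control replicate 4. The rest was Phkg2, at 1.37 ± 0.450 CPM per kb (SD, n = 3) in the control and 1.70 ± 0.214 CPM per kb (SD, n = 4) in the EPS group. The Phkg1 share is imprecise, since Phkg1 had 5 to 11 reads in each library other than control replicate 4. All these shares depend on the annotated exon lengths.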
